A study of Mus musculus with 10 samples.

Results

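The Ifitm genes encode interferon-induced transmembrane proteins, and their messages were followed here across leukemic and normal B cell precursors of the mouse. The 6 members, Ifitm1, Ifitm2, Ifitm3, Ifitm5, Ifitm6 and Ifitm7, are all genes of that name on the array except Ifitm10, and they were taken by the gene name printed with each probe. They have 7 probes among the 41174 non-control probes of the array. Of all these probes, 7208 could not be matched to a RefSeq gene symbol, and the others were matched to 20126 different symbols. Ifitm2 has 2 probes and each other member has 1. The family was chosen from results already known for these arrays, in which Ifitm1 stood far above wt pro-B cells in the leukemias. Every value of that contrast is therefore given as a description with no test.

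Total RNA was hybridised to 10 one-colour arrays, 2 for each of 5 groups. The B-ALL (B cell acute lymphoblastic leukemia) cells came from lymph nodes of 3 mice, 686, 713 and 760, of genotype Ebf1+/- Pax5+/- (dHet), which have lost 1 copy each of the genes for the B cell factors Ebf1 and Pax5. The dHet pro-B cells were Ebf1+/- Pax5+/- Rag2-/-, grown from c-Kit-positive fetal liver cells in short culture on a feeder layer of OP9 stromal cells, to which IL-7, SCF and Flt3 ligand were added. The wt pro-B cells (Ebf1+/+ Pax5+/+) were sorted as Fraction BC from bone marrow of control mice and were not cultured. Tissue, culture, Rag2 genotype and leukemia thus change together between groups and cannot be told apart, and the labels do not say whether the 2 arrays of a group are separate animals or cultures. Ages are not in the labels.

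IFITM proteins are small proteins of the plasma membrane and of endosomes that hinder the fusion of enveloped viruses with the cell, and several of them are induced by type I and type II interferons through STAT factors. In B cells IFITM1 has long been known as a partner of the membrane proteins CD21 and CD81, and IFITM3 as a scaffold for signals at the membrane. Ifitm1, Ifitm2, Ifitm3, Ifitm5 and Ifitm6 lie side by side on chromosome 7 in the mouse, whereas Ifitm7 lies alone on chromosome 16.

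The probes are 60 bases long, and their sequences are shown because members of a family can share sequence. Coordinates are those the files give on mm9; whether a probe lies in coding or untranslated exon was not analysed here. The Ifitm1 probe (chr7:148155455-148155514, plus strand) and the first Ifitm2 probe (chr7:148140912-148140971, minus strand) lie in the cluster. The second Ifitm2 probe is placed by the files at chr7:54087914-54087973 on the plus strand, away from the cluster.
Ifitm1, A_52_P541802: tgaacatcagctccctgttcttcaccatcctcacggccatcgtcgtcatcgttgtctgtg
Ifitm2, A_51_P168459: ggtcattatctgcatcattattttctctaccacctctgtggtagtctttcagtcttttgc
Ifitm2, A_52_P559618: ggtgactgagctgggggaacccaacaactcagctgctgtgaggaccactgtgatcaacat

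Among the 21 pairs of member probes, set against each other without gaps, the Ifitm5 and Ifitm7 probes were the most similar, with 36 matching bases in an overlap of 54 (66.7%). The matching bases are in capitals in both. The Ifitm5 probe lies at chr7:148135949-148136008 and the Ifitm7 probe at chr16:13983746-13983805, both on the minus strand.
Ifitm5, A_52_P273812: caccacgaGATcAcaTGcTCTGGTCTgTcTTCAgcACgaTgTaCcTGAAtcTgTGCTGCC
Ifitm7, A_51_P184928: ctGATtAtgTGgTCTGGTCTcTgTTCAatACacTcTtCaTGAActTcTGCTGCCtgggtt

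The other 20 pairs matched over at most 50.0% of their overlap, which is the Ifitm1 and Ifitm7 pair. The Ifitm3 probe (A_51_P128876, chr7:148195591-148195650) and the Ifitm6 probe (A_51_P294555, chr7:148201714-148201773), both on the minus strand, are given by position only. A search of all array probes with blastn found 1 related probe without a member's name. It is A_52_P437066, named in the files by a transcript identifier only. It shares 27 bases in full identity with A_52_P559618 of Ifitm2. Binding of a probe to transcripts of another member was not tested, since transcript sequences were not used here.

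Levels are log2 of the processed signal minus each array's 75th percentile, so a level of 0 equals that percentile and a step of 1 is a doubling. They are compared between groups for the same probe, never between probes. A probe was tested when it was well above background on both arrays of at least 1 group, which 22302 probes were. Between 35.7% and 52.4% of probes were well above background on an array, the lowest being replicate 1 of leukemia 686, and no spot was saturated. Arrays of a group correlated at r of 0.945 to 0.993 over the tested probes and arrays of different groups at 0.835 to 0.964. The replicate 1 arrays of the 3 leukemias were on slide 1, their replicate 2 arrays on slide 2, and all pro-B arrays on slide 3. Slide and the difference between leukemia and pro-B cannot be told apart. Of 16 B cell progenitor markers, 14 to 16 were well above background on both arrays in each group, including Cd79a everywhere. Pax5 was well above background on no array of leukemias 686 and 760.

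Of the 7 member probes, 6 were tested. Ifitm1, Ifitm2 (both probes), Ifitm3 and Ifitm7 were well above background on all 10 arrays. Ifitm6 was so only on both arrays of leukemia 686 and of wt pro-B, and was tested only through these groups, where it is high. Ifitm5, known from bone-forming cells, was well above background on no array, with levels between -4.79 and -6.24 as group means. The most similar probe, that of Ifitm7, was bright on all arrays. In bulk RNA, fewer cells of a type and less message per cell cannot be told apart.

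Ifitm1 had the widest range of the family. In leukemia 760 its level was 7.50 on slide 1 and 6.26 on slide 2, in leukemia 686 5.05 and 3.74, and in leukemia 713 3.77 and 2.14. The dHet pro-B arrays gave 5.43 and 5.24, and the wt pro-B arrays -0.88 and -0.998. All 8 arrays of Ebf1+/- Pax5+/- cells were above both wt arrays, and the dHet pro-B arrays lay within the range of the leukemias. The order of group means was leukemia 760 (6.88), dHet pro-B (5.33), leukemia 686 (4.40), leukemia 713 (2.96) and wt pro-B (-0.94). Among these, leukemias 686 and 713 overlapped in their arrays. The SD of the 2 arrays was 0.88 to 1.15 in the leukemias and 0.09 to 0.13 in the pro-B groups.

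Ifitm7 had the same order of group means, with the leukemia 686 and 713 arrays overlapping. Its levels were 6.31 and 5.54 in leukemia 760, 4.40 and 3.31 in leukemia 686, 4.16 and 3.12 in leukemia 713, 4.33 and 4.08 in dHet pro-B, and 0.37 and 0.17 in wt pro-B. For Ifitm7, unlike Ifitm1, the leukemia 686, leukemia 713 and dHet pro-B means (3.86, 3.64 and 4.21) lay close together, with wt pro-B below them and leukemia 760 above.

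Ifitm2 and Ifitm3, the broadly expressed members of the cluster, were arranged differently: every leukemia mean was above dHet pro-B. The first Ifitm2 probe read 4.07 and 2.75 in leukemia 686, 3.86 and 2.10 in leukemia 713, 4.72 and 3.25 in leukemia 760, 2.21 and 2.30 in dHet pro-B, and -0.20 and 0.00 in wt pro-B. The second Ifitm2 probe had group means of 2.92, 2.47 and 3.42 in the leukemias in the same mouse order, 1.79 in dHet pro-B and -0.66 for the wt arrays. The 2 probes ran together at r = 0.994 over the 10 arrays, which share slides and samples. The related probe A_52_P437066 was also well above background on all 10 arrays. Its levels were lowest in wt pro-B (-2.39 and -2.31) and highest in leukemia 760 (0.63 and 0.88). In the leukemias they were not higher on slide 1.

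For Ifitm3 the arrays gave 2.91 and 1.73 in leukemia 686, 3.83 and 2.61 in leukemia 713, 4.02 and 2.81 in leukemia 760, 1.65 and 1.71 in dHet pro-B, and -0.36 and -0.19 in wt pro-B. All 6 leukemia arrays were above both dHet arrays, the slide 2 array of leukemia 686 (1.73) only just. Leukemia 686 was the lowest leukemia for Ifitm3, whereas leukemia 713 was the lowest for Ifitm1 and Ifitm2.

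**Figure D1:**
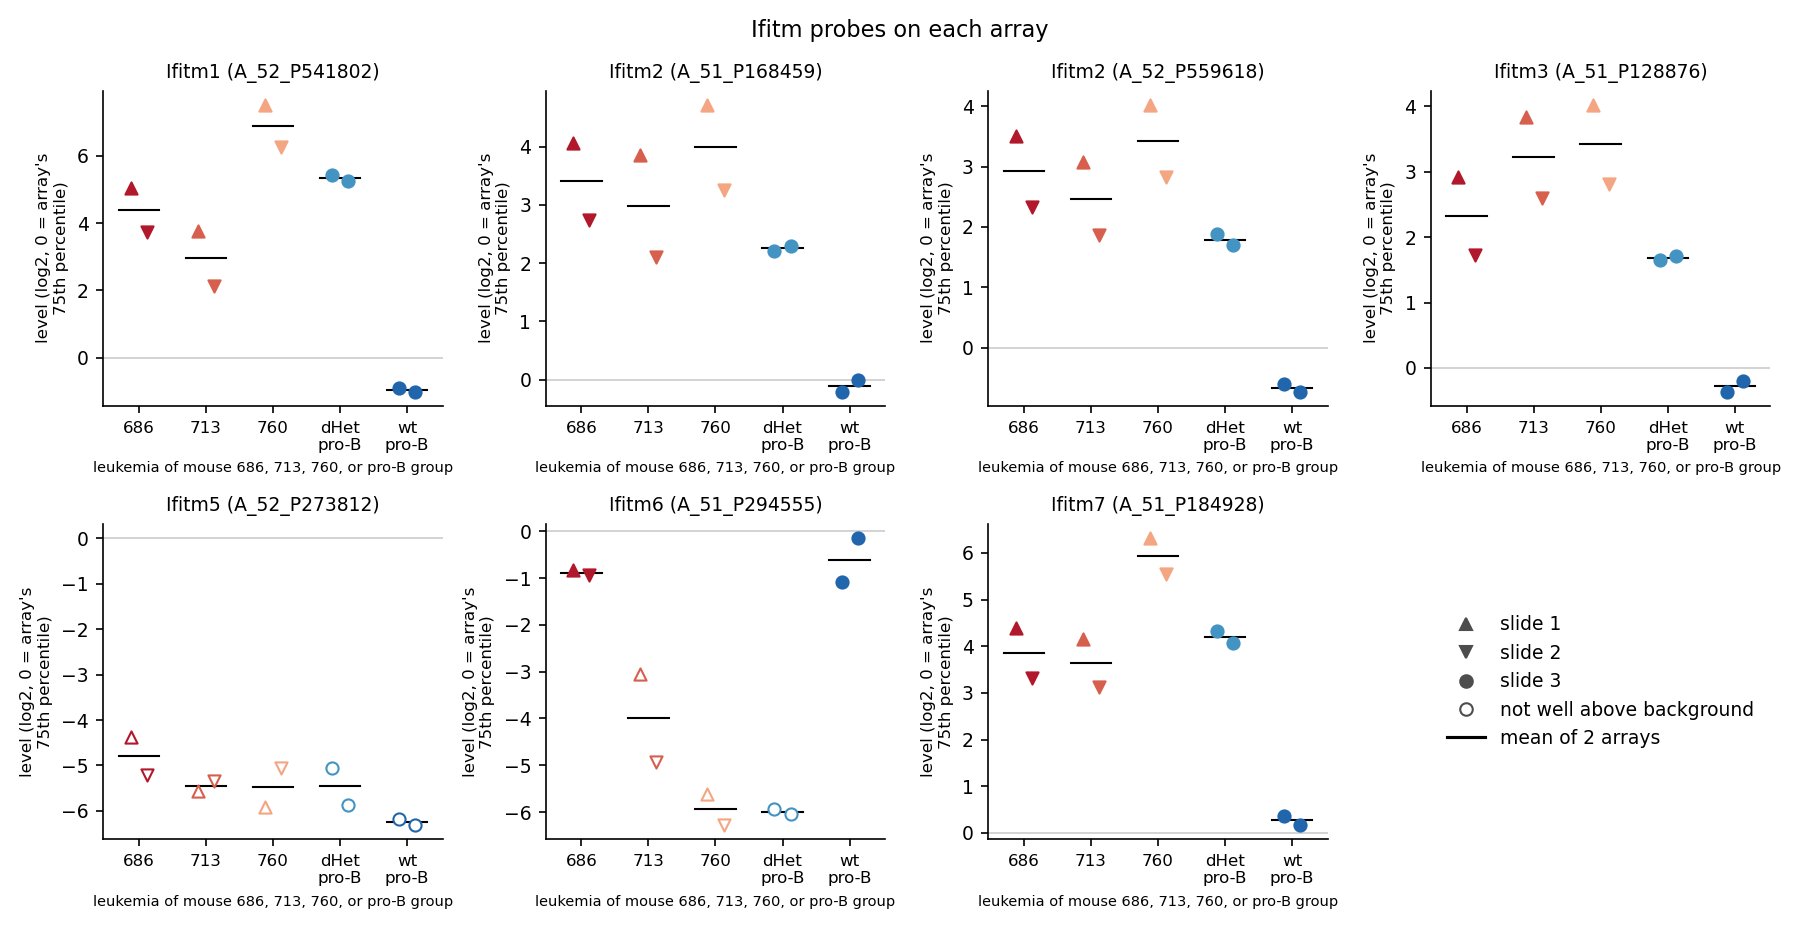
Level of each Ifitm probe on each array (log2, 0 is the array's 75th percentile) by group; triangles mark leukemia arrays of slide 1 (up) and slide 2 (down), circles the pro-B arrays of slide 3, open symbols arrays not well above background, and black lines the mean of 2 arrays. For Ifitm1, both Ifitm2 probes, Ifitm3 and Ifitm7 the wt pro-B arrays are lowest, while Ifitm6 is highest in leukemia 686 and wt pro-B.

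In each leukemia the slide 1 array read higher than the slide 2 array for Ifitm1, Ifitm2, Ifitm3 and Ifitm7. The gap was 1.24 to 1.63 for Ifitm1, 1.18 to 1.76 over the Ifitm2 probes, 1.18 to 1.23 for Ifitm3 and 0.77 to 1.09 for Ifitm7. The median gap over all tested probes was 0.01, 0.13 and 0.11 in mice 686, 713 and 760, and the 95th percentile was 2.14, 1.15 and 0.93. The gaps of Ifitm1, Ifitm2 and Ifitm3 were thus beyond the 95th percentile in mice 713 and 760. What makes the slides differ was not tested, so results that involve the leukemias are also given by slide.

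Leukemias against wt pro-B cells, the contrast that led to the choice of the family, are described first. The mean of the 3 mice was higher than wt by 5.68 ± 1.06 for Ifitm1 (log2, SE from limma, a 51.4-fold difference), 3.56 ± 0.30 and 3.60 ± 0.28 for the Ifitm2 probes, 3.26 ± 0.33 for Ifitm3 and 4.21 ± 0.69 for Ifitm7. By mouse, the Ifitm1 difference was 225.9-fold in 760, 40.3-fold in 686 and 14.9-fold in 713. In all, 5 of the 6 tested probes had every mouse above every wt array. The share of all tested probes with every mouse above every wt array was not counted. By another measure, limma at an adjusted p under 0.05, 27.7% of all tested probes passed as higher and 31% as lower in this contrast. With the slide 2 leukemia arrays alone the Ifitm1 difference was 4.99, and with those of slide 1 it was 6.38.

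The second comparison asks how cultured dHet pro-B cells, before leukemia, differ from wt pro-B cells. It shares the wt arrays with the contrast above, so it is no independent support for it. The family was chosen through Ifitm1 with these wt arrays, so the adjusted p of Ifitm1 here is not free of that choice. All 5 probes of Ifitm1, Ifitm2, Ifitm3 and Ifitm7 rose in dHet pro-B and Ifitm6 fell, by limma with Benjamini-Hochberg adjustment over all 22302 probes and a threshold of 0.05. Of all tested probes, 13.9% rose and 13.2% fell. Ifitm1 rose 77.2-fold (6.27 ± 0.66 on the log2 scale, adjusted p = 0.000793) and Ifitm7 15.3-fold (3.94 ± 0.48, adjusted p = 0.00141). The Ifitm2 probes rose by 2.35 ± 0.72 (adjusted p = 0.0484) and 2.46 ± 0.57 (adjusted p = 0.0186), and Ifitm3 by 1.96 ± 0.57 (adjusted p = 0.043). Both dHet arrays were above both wt arrays for each of these probes.

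The Ifitm2 and Ifitm3 calls were near the threshold. Leaving out any 1 array of either pro-B group, with the lone array taken to vary like the other groups, ended all 3 of them and left 2 probes called higher, those of Ifitm1 and Ifitm7. Their differences stayed between 1.87 and 2.55 in those fits. With slide as a random block all 5 remained called.

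The leukemias were next compared with dHet pro-B, which carry the same Ebf1 and Pax5 genotype without leukemia, over 7 samples (3 mouse means and 4 pro-B arrays). Ifitm2 and Ifitm3 rose, by 1.20 ± 0.30 (2.30-fold, adjusted p = 0.0201) and 1.14 ± 0.28 (2.21-fold, adjusted p = 0.0206) for the Ifitm2 probes and by 1.31 ± 0.33 (2.48-fold, adjusted p = 0.0223) for Ifitm3, in limma. These 3 of 6 tested probes stand beside 19.3% of all tested probes called higher and 27.4% called lower. All 3 mouse means were above dHet pro-B, from 1.60-fold (mouse 713) to 3.09-fold (760) for the second Ifitm2 probe and from 1.57-fold (686) to 3.34-fold (760) for Ifitm3. The smaller differences of Ifitm2 came with overlapping arrays: the slide 2 array of leukemia 713 (2.10) was below both dHet arrays (2.21 and 2.30) for the first probe.

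Ifitm1 did not pass in that comparison (-0.59 ± 1.06, adjusted p = 0.672), nor did Ifitm7 (0.27 ± 0.69, adjusted p = 0.765). The mice lay on both sides of dHet pro-B: leukemia 760 was 2.93-fold higher for Ifitm1 and 3.30-fold higher for Ifitm7, whereas leukemia 713 was 5.20-fold and 1.48-fold lower and leukemia 686 was 1.91-fold and 1.27-fold lower. The Ifitm1 difference turned with the mouse left out: it was -1.66 without 760, which passed (adjusted p = 0.0391, limma), -0.41 without 686 (adjusted p = 0.81) and 0.31 without 713 (adjusted p = 0.766).

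By slide, the differences from dHet pro-B were unequal. With the slide 1 leukemia arrays the first Ifitm2 probe differed by 1.96 (adjusted p = 0.00338) and Ifitm3 by 1.91 (adjusted p = 0.00736), in limma. With the slide 2 arrays, scanned in the same session as the pro-B arrays, they differed by 0.45 (adjusted p = 0.319) and 0.71 (adjusted p = 0.132), and none of the 3 calls remained. The Ifitm1 difference was 0.11 with slide 1 and -1.29 with slide 2, which did not pass (adjusted p = 0.386). The calls were also lost with slide as a random block (0 of 6 probes called higher), and without either dHet array or without replicate 1 of leukemia 686 (0 called); 1 was left without replicate 1 of leukemia 713 or replicate 2 of leukemia 760. With the 10 arrays as replicates and the slide of the leukemia arrays as a block, which counts arrays and not mice, the differences were 0.45 and 0.55 for Ifitm2 (adjusted p = 0.0296 and 0.00547, limma), 0.71 for Ifitm3 (adjusted p = 0.00155) and -1.29 for Ifitm1 (adjusted p = 0.00047).

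**Figure D2:**
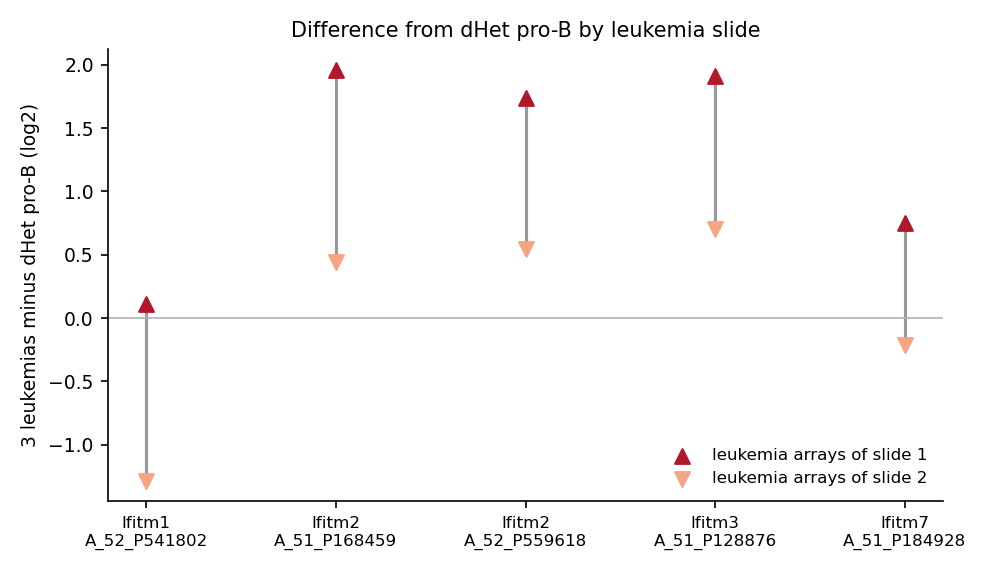
Difference of the 3 leukemias from dHet pro-B cells (log2, y axis) for the 5 probes above background on all arrays, computed with the leukemia arrays of slide 1 (up) or slide 2 (down) only. The first Ifitm2 probe goes from 1.96 to 0.45 and Ifitm1 from 0.11 to -1.29.

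Differences between the leukemias were tested over all 10 arrays, each leukemia against the mean of the other 2, so that the spread is that between the 2 arrays of a group. Leukemia 760 had higher Ifitm1 (3.21 ± 0.57, 9.23-fold, adjusted p = 0.0147) and Ifitm7 (2.18 ± 0.42, 4.52-fold, adjusted p = 0.0188), with both its arrays above the other 4 leukemia arrays. Leukemia 713 had lower Ifitm1 (-2.68 ± 0.57, adjusted p = 0.0244), although its slide 1 array (3.77) overlapped the slide 2 array of leukemia 686 (3.74). That call was lost without either array of dHet or wt pro-B, without replicate 2 of leukemia 713 and without replicate 1 of leukemia 760 (0 called lower), and both calls of 760 were lost without its own replicate 1. Leukemia 686 differed from the others in Ifitm6 only (below). In all, 2 of 6 tested probes were higher in 760, against 4.31% of all tested probes, and 1 was lower, against 5.34%. In 713, 0 were higher, against 7.1%, and 1 was lower, against 5.13%. In 686, 1 was higher, against 1.21%, and 0 were lower, against 1.75%. The probe higher in 686 is that of Ifitm6, tested only through leukemia 686 and wt pro-B, where it is high.

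Since the leukemia arrays with the same replicate number share a slide, the same comparisons were also fitted with the slide of the leukemia arrays as a block, which is the same as the scan session. In that fit leukemia 760 was higher for 5 probes, also both of Ifitm2 (0.79 and 0.73, adjusted p = 0.00798 and 0.00453, limma) and Ifitm3 (0.65, adjusted p = 0.00534). Leukemia 713 was lower for 4 probes, of Ifitm1, Ifitm2 and Ifitm7, and higher for Ifitm3 (0.35, adjusted p = 0.0347). Leukemia 686 was lower for 3 probes, of Ifitm1 (-0.52), Ifitm3 (-0.99) and Ifitm7 (-0.93). The Ifitm3 difference in leukemia 713 passed in that fit only; its adjusted p was 0.762 without a block, 0.267 with slide as a random block and 0.613 with the replicate number as a block.

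**Figure D3:**
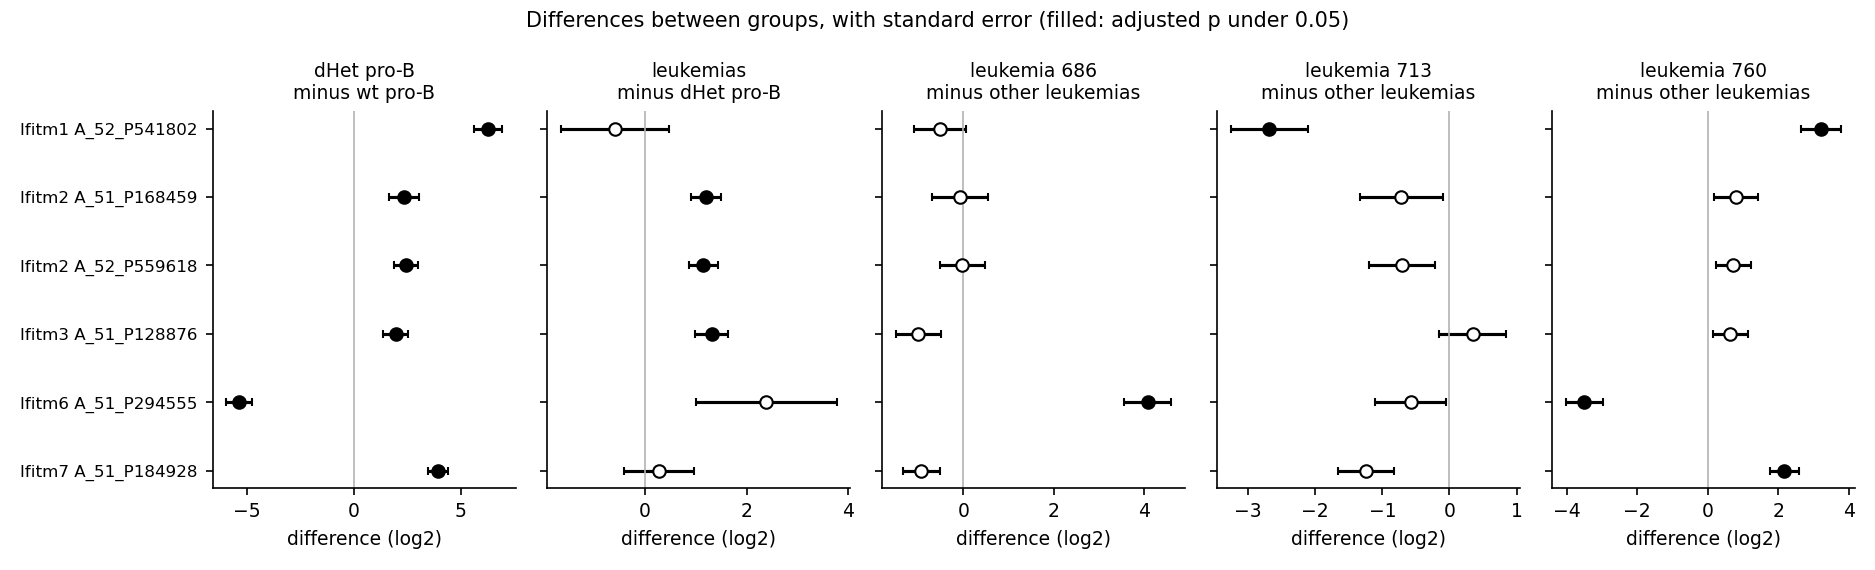
Difference between groups (log2, x axis) with its standard error for each tested Ifitm probe in 5 comparisons, filled where the adjusted p is under 0.05. Ifitm1 is 6.27 higher in dHet than in wt pro-B, and Ifitm6, whose values below background are plotted as measured, has the opposite sign there.

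Ifitm6, the member whose message is best known from myeloid cells, followed another pattern. Its level was -0.83 and -0.94 in leukemia 686 and -1.09 and -0.15 in wt pro-B, so these groups overlapped. It was -3.05 and -4.94 in leukemia 713, -5.61 and -6.28 in leukemia 760, and -5.94 and -6.04 in dHet pro-B, and not well above background on any of those arrays. A fold against such arrays is a bound, taken against the lowest signal well above background there, or the probe's own where that was higher. On this basis Ifitm6 was at least 10.8-fold lower in dHet than in wt pro-B (measured difference -5.37 ± 0.61, adjusted p = 0.00103, limma). It was at least 9.58-fold lower in leukemia 713 and at least 10.6-fold lower in leukemia 760 than in wt pro-B. Against leukemia 686 the bounds were 7.98-fold for 713 and 8.80-fold for 760.

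Leukemia 686 was called higher in Ifitm6 than the other leukemias (measured difference 4.09 ± 0.52, adjusted p = 0.0121, limma). Since the probe was tested only through leukemia 686 and wt pro-B, calls that set these groups above others are not independent of the filter. Leukemia 760 was called lower (measured difference -3.51, adjusted p = 0.00739), but not once the undetected arrays were set to the lowest level well above background (-1.64, adjusted p = 0.101), nor without its replicate 2 (0 called lower). For the leukemias as a group against dHet pro-B the difference was 2.38 ± 1.39 and did not pass (adjusted p = 0.204). It passed with scan session as a block (1.94, adjusted p = 0.0102), with 10 arrays as replicates (adjusted p = 0.0078) and without mouse 760 (3.55, adjusted p = 0.0406). The count of higher probes was then 4, 1 and 4. In each of these fits the dHet arrays were not well above background.

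Markers of neutrophils moved with Ifitm6. The summed linear level of 13 such genes, in units of the array's 75th percentile, was 65.8 to 134 in wt pro-B, 22 to 29.4 in leukemia 686, 1.26 to 3.63 in leukemia 713, 0.422 to 1.15 in leukemia 760 and 0.489 to 0.834 in dHet pro-B. In wt pro-B 9 of the 13 were well above background on both arrays and 5 in leukemia 686, against 1 or 2 in the other groups, and Elane and Csf3r were well above background on no array of any group. S100a9, a calcium-binding protein abundant in neutrophils, had group means of 6.19 in wt pro-B, 4.25 in leukemia 686, 0.56 in leukemia 713, -1.77 in leukemia 760 and -2.10 in dHet pro-B. In wt pro-B and leukemia 686, S100a9 and S100a8 (3.73 and 1.89) were the brightest of the 13 and weigh most in the neutrophil sum. Mmp9 was higher in leukemia 686 (-1.92) than in wt pro-B (-2.97). The summed level of 16 monocyte and macrophage markers had another order, 113 to 129 in leukemia 686, 163 to 198 in leukemia 713, 22.6 to 29.6 in leukemia 760, 39 to 46.9 in dHet and 31.8 to 43.4 in wt pro-B. Lyz2, Lyz1 and Ly6c2 were the brightest of them in every group and weigh most in that sum. Adgre1 was well above background on both arrays of wt pro-B (mean -1.18) and 1 array of leukemia 686 (-1.95). It was so on no array of 713, 760 and dHet pro-B. Other genes of the list had another order: Marco and Fcgr1 were highest in 713 (1.86 and 0.004). Of the 15 tested, 10 were called lower and 0 higher in dHet against wt pro-B (13.2% and 13.9% of all tested probes). In leukemia 713 against the others, 9 were higher and 1 lower (7.1% and 5.13%). The part of such cells in the Ifitm6 result was not tested.

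**Figure D4:**
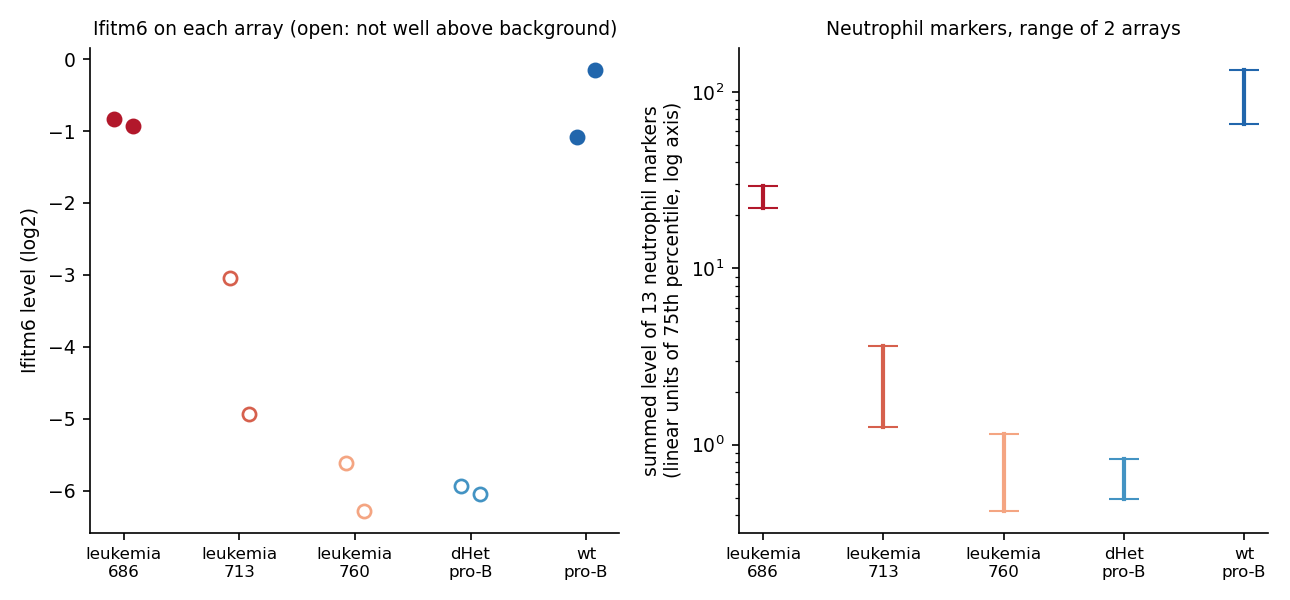
Left, Ifitm6 level on each array (log2), open where not well above background; right, range over 2 arrays of the summed linear level of 13 neutrophil markers (log axis). Both are highest in wt pro-B and leukemia 686.

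Other summed marker levels also differed between groups beside the Ifitm1, Ifitm2, Ifitm3 and Ifitm7 values. The 16 T cell markers summed to 66.2 to 92.1 in leukemia 760, 43.9 to 53.4 in 713 and 17.5 to 28.2 in 686, against 13.7 to 17.7 in dHet and 12.3 to 13.1 in wt pro-B, with Cd4 well above background nowhere. Thy1, Lck and Lat (4.95, 4.50 and 4.12) were the brightest of them in 760 and weigh most in that sum. Cd247 and Zap70 were also highest in 760 among the leukemias. Other T cell markers, Cd3d, Cd8a and Cd8b1 among them, were lowest there. Cd3d had means of -0.42 in 760, 0.86 in 686 and 0.80 in 713. The 9 NK cell markers summed to 22.5 to 46.3 over the leukemias, 17.7 to 19.8 in dHet pro-B and 3.12 to 3.93 in wt pro-B, with Ncr1 well above background nowhere. The 16 stromal and endothelial markers summed to 79 to 108 in leukemia 686, 19.2 to 36.7 in 713, 33.5 to 60 in 760, 19.1 to 20.2 in dHet and 8.57 to 8.97 in wt pro-B, with Col1a1, Lum and Cxcl12 well above background nowhere. Egfl7 was the brightest of them in every group and weighs most in that sum. Its means were 6.49, 4.48 and 5.43 in leukemias 686, 713 and 760, 3.94 in dHet and 2.01 in wt pro-B. Other members had another order: Kdr and Pecam1 were highest in dHet pro-B, and Vcam1 and Cdh5 in wt pro-B. The 8 erythroid and megakaryocyte markers were highest in leukemia 713 (55.1 to 87.9) and lowest in dHet pro-B (0.249 to 0.408), with Klf1 well above background nowhere. These sums too follow their brightest genes, such as Klrd1 in dHet pro-B (4.08) for the NK list and Hba-a1 in leukemia 713 (6.07) for the erythroid list. The part of any of these cell types in the Ifitm differences was not tested.

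Over the 10 arrays, the probes that ran most like each member, among 3747 genes whose group means spanned at least 2 on the log2 scale, were as follows. For Ifitm1 they were Gstt3 (Pearson r 0.984), Ifitm7 (0.981), Spata6 (0.977), Prr36 (0.976) and Cenpp (0.971). For Ifitm7 they were Nfe2 (0.990), Slc43a1 (0.983), Ifitm1 (0.981), Zdhhc1 (0.981) and Ctdspl (0.977). For Ifitm2 they were Wdr12 (0.993), Vav3 (0.990), Slc29a1 (0.987), Slc25a1 (0.987) and Dscc1 (0.981). For Ifitm3 they were M1ap (0.981), Tesmin (0.976), Gphn (0.973), Fggy (0.973) and Anxa1 (0.969). Ifitm6 ran with Clec4a2 (0.984), Sqor (0.983), S100a9 (0.979), S100a8 (0.969) and Rnase2a (0.967), of which S100a8 and S100a9 are in the neutrophil list. These r values are descriptions over arrays that share 3 slides and 5 groups. Within the family, r was 0.954 between Ifitm2 (first probe) and Ifitm3, 0.874 between Ifitm1 and Ifitm2 and 0.789 between Ifitm1 and Ifitm3. It was 0.920 and 0.933 between Ifitm7 and the Ifitm2 probes and 0.881 between Ifitm7 and Ifitm3, and between -0.688 and -0.391 for Ifitm6 with the others.

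Because IFITM genes are known as interferon targets, 40 interferon-stimulated genes outside the family were listed, of which 39 were tested by their brightest probe. In dHet against wt pro-B, 5 of the 39 rose and 8 fell, beside 13.9% and 13.2% of all tested probes, with a median difference of 0.05 against 0.20 over all 12147 genes with a symbol. The largest differences among the called genes were falls of Iigp1, a GTPase against intracellular parasites (at least 5.995-fold, adjusted p = 0.00131, limma), Ifi44 (at least 6.18-fold, adjusted p = 0.0242), Zbp1, a sensor of nucleic acids (-2.61 ± 0.30, adjusted p = 0.00105), and the antiviral GTPase Mx2 (-2.18 ± 0.35, adjusted p = 0.00436). Iigp1 and Ifi44 were not well above background in dHet pro-B, so their folds are bounds. The measured differences were -4.45 ± 0.53 and -3.41 ± 0.85. Iigp1 was tested only through wt pro-B, and Ifi44 only through wt pro-B and leukemia 760, where they are high, so their falls are not independent of the filter. Isg15, a ubiquitin-like protein induced by interferon, had means of 0.21 and 0.48 and did not pass (adjusted p = 0.587), and Ifit1 was above background in neither group. Without 1 array of either pro-B group the counts fell to as few as 1 higher and 3 lower.

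Of 17 genes of interferon signalling, 2 rose and 1 fell in the same comparison. Ifngr1, a chain of the interferon gamma receptor, rose by 1.04 ± 0.20 (adjusted p = 0.00855, limma) and Irf7, a factor of the type I interferon response whose gene neighbours the Ifitm cluster, by 0.94 ± 0.20 (adjusted p = 0.0132). Irf9 had a difference of -0.27 ± 0.18 that did not pass (adjusted p = 0.313). Without single pro-B arrays the counts went down to 0 in each direction.

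In the leukemias against dHet pro-B, 7 interferon-stimulated genes were called higher and 3 lower, beside 19.3% and 27.4% of all tested probes, with a median of 0.16 against 0.01 over all genes. Without either dHet array the counts went down to 2 or 3 higher and 0 lower, and without mouse 686 they were 13 higher and 1 lower. Oas1a, an enzyme that activates RNase L, rose by 3.15 ± 0.31 (adjusted p = 0.00128, limma) and Bst2, which tethers virus particles, by 1.31 ± 0.27 (adjusted p = 0.0115). Iigp1, 1 of the 7, was well above background on no dHet array and on only 1 array each of leukemias 713 and 760, so its call compares mostly background and no size is given. Ifih1, a sensor of viral RNA, and Ifit2 fell (-1.36 ± 0.36 and -1.33 ± 0.36, adjusted p = 0.0255 and 0.0286). Isg15 (0.30 ± 0.48, adjusted p = 0.632) and Ifit1 (0.02 ± 0.45, adjusted p = 0.974) did not pass. In the signalling list Ifngr1 (0.90 ± 0.13, adjusted p = 0.00352) and Irf3 (0.50 ± 0.15, adjusted p = 0.0401) rose, and Stat2 (-1.13 ± 0.28, adjusted p = 0.0204) and Jak2 (-0.95 ± 0.29, adjusted p = 0.0385) fell, whereas Irf7 (-0.43 ± 0.44) and Irf9 (0.14 ± 0.25) did not pass (adjusted p = 0.454 and 0.663).

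Between leukemias, 0 of the 39 interferon-stimulated genes were higher and 9 lower in 686 (median -0.82), 10 higher and 3 lower in 713 (median 0.39), and 10 higher and 1 lower in 760 (median 0.44), against medians of -0.02, -0.01 and 0.03 over all genes. Of all tested probes, 1.21% were higher and 1.75% lower in 686, 7.1% and 5.13% in 713, and 4.31% and 5.34% in 760. Replicate 1 of leukemia 686 had the fewest probes well above background (35.7%). Ifit2, Ifit3, Oasl2, Mx2 and Zbp1, among others of the list, were well above background on only 1 array of 686. Isg15 had group means of -0.34 in 686, 0.48 in 713 and 1.38 in 760, and Irf7 of -1.35, -0.03 and 0.08.

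**Figure D5:**
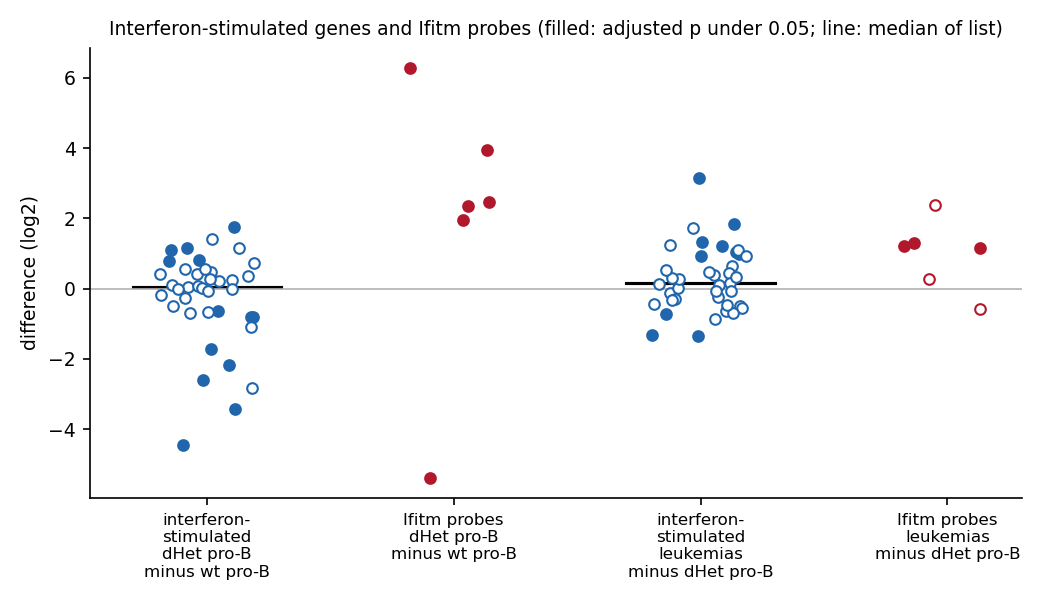
Differences (log2, y axis) of 39 interferon-stimulated genes (blue, black line at their median) and of the 6 tested Ifitm probes (red) in dHet minus wt pro-B (left pair) and leukemias minus dHet pro-B (right pair), filled where the adjusted p is under 0.05. The list medians are 0.05 and 0.16, and the Ifitm1 probe is at 6.27 and -0.59.

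The start regions of the members were searched because Ifitm1, Ifitm2, Ifitm3 and Ifitm7 ran together over the arrays. RefSeq windows of build GRCm38.p6 from 250 bases before to 50 after each start were found for all 6 members. The interferon response element was searched as GAAA and GAAA with any 2 bases between, the STAT element (GAS) as TTC and GAA with any 3 bases between, and the EBF1 element as TCCC and GGGA with any 2 bases between, on both strands, with overlapping matches kept. The interferon element was in 3.44% of all 32851 windows of that length, the GAS letters in 8.3% and the EBF1 letters in 0.904%. Ifitm2 held 1 interferon element, 46 bases before its start, and Ifitm3 held 2, beginning 3 and 20 bases after its start. The Ifitm2 element and the earlier Ifitm3 element have the same letters, GAAAAGGAAA. Ifitm3 also held a GAS match that begins 14 bases after the start and overlaps its later interferon element, and Ifitm6 held a GAS match 10 bases before the start. The windows of Ifitm1, Ifitm5 and Ifitm7 held no match to the 3 motifs, and no member window held the EBF1 letters. A match is a description of the letters and not a shown binding site.

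The 250 bases before the start are shown for the cluster members whose messages rose in dHet pro-B, with the interferon element in capitals. They lie at chr7:140967826-140968075 (plus strand) for Ifitm1, chr7:140955962-140956211 (minus strand) for Ifitm2 and chr7:141010745-141010994 (minus strand) for Ifitm3, on GRCm38.p6. The interferon element was in 2.98% of all windows of this length.
Ifitm1: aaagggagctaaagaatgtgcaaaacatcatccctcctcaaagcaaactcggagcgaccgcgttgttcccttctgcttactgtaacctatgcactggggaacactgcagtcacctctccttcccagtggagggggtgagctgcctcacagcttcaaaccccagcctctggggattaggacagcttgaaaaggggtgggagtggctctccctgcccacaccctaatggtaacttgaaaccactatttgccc
Ifitm2: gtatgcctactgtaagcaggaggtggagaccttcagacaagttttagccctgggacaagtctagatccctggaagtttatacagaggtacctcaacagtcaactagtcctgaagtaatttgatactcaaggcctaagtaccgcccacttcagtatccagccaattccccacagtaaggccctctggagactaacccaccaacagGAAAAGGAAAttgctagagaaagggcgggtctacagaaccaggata
Ifitm3: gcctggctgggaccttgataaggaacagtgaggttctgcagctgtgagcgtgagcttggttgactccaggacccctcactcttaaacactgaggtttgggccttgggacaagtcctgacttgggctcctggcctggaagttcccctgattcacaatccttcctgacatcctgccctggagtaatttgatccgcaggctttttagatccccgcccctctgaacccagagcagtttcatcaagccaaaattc
The later interferon element of Ifitm3, just after its start, reads acttctgaGAAACCGAAActgccgca.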

How the data were processed

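Total RNA of 10 samples was labelled with Cy3 and hybridised to one-colour Agilent arrays. Per the file headers, the deposited intensity values were made by Feature Extraction 10.5.1.1, already background-subtracted on each array, whereas version 9.1 appears in the submitters' processing notes. The authors also deposited a table of log2 values, used as an alternative, whose background, centring and floor are not given in the sources used here. Control spots were left out. The signal of a probe was the mean of its spots not flagged as outliers. Where every spot of a probe was flagged, the mean of all its spots was kept. With 43379 non-control spots for 41174 probes, most probes had a single spot, so a flagged spot was mostly kept. Then log2 of the processed signal was set against each array's 75th percentile. For probes detected above background throughout 1 or more groups, linear models were fitted in limma 3.58.1 (R 4.3.3), with Benjamini-Hochberg adjustment over all tested probes. Leukemias were compared with pro-B groups over 7 samples, the 2 arrays of a mouse averaged (4 residual degrees of freedom), and other comparisons over 10 arrays (5 residual degrees of freedom). The labels do not give the origin of replicates, so p-values measure the spread between these samples, which may be technical. The fits were tested on simulated data with independent spread on each array. Deviations shared by the arrays of a slide were not part of that test.

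The members and gene lists were chosen with earlier results of these data known. All member probes are named; from each list, at most 4 called genes with the largest change per comparison, a few set genes (Irf7, Irf9, Isg15, Ifit1, Bst2 and Cd81 among them; others are not reported here), and the 5 genes most alike to each member. The genes given with their markers and the related probe A_52_P437066 were added after their values were seen. Probe sequences were compared with Python 3.11.15 and blastn 2.17.0. Alternatives were other background corrections, scalings, filters, blocks and left-out arrays. Leukemia arrays with the same replicate number deviated together (r 0.44 to 0.63), and they share a slide per the file headers; pro-B arrays did not (r -0.04 to 0.08).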

Additional observations from a re-analysis of the deposited data

Results flagged for a closer look

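Some members differed between leukemias by the test of the difference itself, each leukemia against the mean of the other 2 by limma over 10 arrays. Ifitm1 was 3.21 (log2) higher in leukemia 760, in both arrays, and -2.68 in leukemia 713. Ifitm7 was 2.18 higher in leukemia 760. Ifitm6 was 4.09 higher in leukemia 686 and -3.51 in leukemia 760, the last from arrays not well above background. Ifitm6 was tested only through leukemia 686 and wt pro-B, where it is high. The spread between mice of the same kind is not part of these tests, since each leukemia is 1 mouse.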

How the results depend on the processing

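No alternative turned the direction of a called Ifitm difference, and in leukemias against wt pro-B 5 probes had every mouse above wt under each alternative run, except 4 with 1 probe a gene, which drops an Ifitm2 probe, and 6 with no filter, which adds the undetected Ifitm5. Counts of Ifitm probes did change. For dHet above wt pro-B (5) the count was 2 with no filter, 3 with dim arrays set to the lowest detected level, 3 with a filter of 1 array, and 2 to 5 without single arrays. For leukemias above dHet pro-B (3) it was 1 with 10 arrays as replicates, which is Ifitm6 and none of the Ifitm2 and Ifitm3 probes (adjusted p 0.0579 to 0.136, limma), 0 with slide 2 only (chosen after seeing the data), 0 with slide as a random block and 0 to 3 without single arrays; lower calls (0) became 1 with scan session as a block and 1 without mouse 760. For leukemia 686, higher calls (1) became 0 with no filter, and lower calls (0) became 3 with scan session as a block and 2 with slide as a random block. For leukemia 713, higher calls (0) became 1 with scan session as a block. Its lower calls (1) became 2 with the percentile of probes detected on all arrays, the authors' deposited values, quantile normalization, normexp with quantile, or the replicate block, 4 with scan session as a block, 3 with slide as a random block, 0 with no filter, and 0 to 2 without single arrays. For leukemia 760, higher calls (2) became 0 with no filter, 5 with scan session as a block and 0 to 2 without single arrays, and lower calls (1) became 0 with undetected arrays at the lowest detected level and 0 to 1 without single arrays. In the replicate block, the first Ifitm2 probe did not pass in leukemias against dHet pro-B (adjusted p = 0.0621, limma), while Ifitm6 did (adjusted p = 0.00861). The causes were not tested.

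Scaling by the array median moved the median of all tested probes from 0.10 to 0.45 in dHet against wt pro-B, where probes called higher and lower went from 3107 and 2949 to 3284 and 1859. In leukemias against dHet pro-B it moved from -0.15 to 0.06, and the calls from 4314 and 6108 to 4583 and 3607. In leukemias against wt pro-B it moved from -0.07 to 0.49, and the calls from 6183 and 6909 to 8972 and 3887. The number of arrays limits the precision, and Ifitm5 and most Ifitm6 values are limited by background.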

Other observations

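Genes that encode known partners of IFITM proteins were listed as well. Of 17 tested, 5 were called higher and 3 lower in dHet against wt pro-B, beside 13.9% and 13.2% of all tested probes, with a median of 0.41 against 0.20 over all genes (limma, adjusted p under 0.05). Cd81, a tetraspanin of the B cell surface, rose by 0.87 ± 0.18 (adjusted p = 0.0121), and Cr2, which encodes CD21, fell at least 7.10-fold (adjusted p = 0.00312), a bound because no dHet array was well above background. Cr2 was tested only through wt pro-B and leukemia 713, where it is higher. Cav1, which encodes caveolin, rose at least 3.31-fold (adjusted p = 0.000397), a bound because no wt array was; it was tested only through dHet pro-B, where it is high. Without single pro-B arrays the counts were 3 or 4 higher and 2 lower. Nedd4, a ubiquitin ligase that acts on IFITM3, rose by 1.62 ± 0.24 (adjusted p = 0.00299). In the leukemias against dHet pro-B, 0 were called higher and 4 lower, beside 19.3% and 27.4% of all tested probes. Among the 4 were Nedd4, Btk and Cav1, the last well above background on 1 of the 6 leukemia arrays. The count lower went down to 1 and 0 without the dHet arrays in turn, and to 2 without either wt array. Cd81 did not pass (0.16 ± 0.23, adjusted p = 0.595).

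Of 26 genes that neighbour the chromosome 7 cluster, 20 were tested. In dHet against wt pro-B 5 were called higher and 2 lower, among them Sirt3 (1.87 ± 0.17, adjusted p = 0.000454, limma) and Pkp3 (-2.85 ± 0.38, adjusted p = 0.0021). In leukemias against dHet pro-B 4 were called higher and 4 lower, among them Hras (1.17 ± 0.15, adjusted p = 0.00268). Without single pro-B arrays the counts were 2 higher and 1 lower in dHet against wt pro-B. In leukemias against dHet pro-B they were 1 or 2 higher and 1 to 4 lower. The shares of all tested probes given above stand beside these counts too. Of 11 listed names of related dispanin genes, 2 were tested. Tmem91 fell in dHet against wt pro-B (-1.23 ± 0.28, adjusted p = 0.0179, limma), a call lost without any 1 of the 4 pro-B arrays. Prrt1 was well above background on both wt arrays, 1 dHet array and no leukemia array, so no difference is given for it.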
